A study of Mus musculus with 2 samples.

Results

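The genes described here are 9 genes whose products write, remove or read DNA methylation: Dnmt1, Uhrf1, Dnmt3a, Dnmt3b, Tet1, Tet2, Tet3, Mbd2 and Mbd3. They were picked by symbol from the 32285 genes of the count tables, and each symbol matched a single row. Their UMIs (unique molecular identifiers, each marking a captured transcript) were followed through the cell classes and cell cycle calls of the embryonic mouse dorsal telencephalon, the anlage of the cerebral cortex. Dorsal telencephalons of wild-type control embryos of the EomesDot line had been dissected at embryonic day 14.5, dissociated with papain and loaded into droplets for single-cell RNA sequencing, which here captures the 3′ ends of transcripts. The methods of the study name C57BL/6J embryos for this experiment, whereas the labels name the EomesDot line, and how the names relate is not given in the sources used here. Both libraries, called replicate 2 and replicate 4 after their titles, belonged to the same group, so cell classes and phases were compared, not animals. Whether each library came from a single embryo is not stated, so the p-values measure the spread between these 2 libraries only. The study asked how DNMT1 acts in interneurons that migrate into the cortex and how these cells affect cortical progenitors.

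DNMT1 is the maintenance methyltransferase: after replication it copies methyl groups from the parental strand onto the new strand, and UHRF1 (ubiquitin-like with PHD and RING finger domains) recognises hemimethylated DNA and recruits it. DNMT3A and DNMT3B set methyl groups on DNA that carries none, the TET dioxygenases oxidise methylated cytosine and so start its removal, and MBD2 and MBD3 belong to the NuRD (nucleosome remodelling and deacetylase) complex, MBD2 with affinity for methylated CpG. In the developing cortex, radial glial cells (RGCs) divide at the ventricle, give rise to intermediate progenitor cells (IPCs) and, through them, to excitatory neurons, while inhibitory interneurons migrate in from the medial ganglionic eminence (MGE).

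In mm10 (GRCm38.p6), Dnmt1 (ENSMUSG00000004099) spans 20907206 to 20959888 of chromosome 9, Uhrf1 (ENSMUSG00000001228) 56303337 to 56323486 of chromosome 17, Dnmt3a (ENSMUSG00000020661) 3801559 to 3914443 of chromosome 12 and Tet2 (ENSMUSG00000040943) 133463677 to 133545136 of chromosome 3. Dnmt3a overlaps the antisense gene Dnmt3aos and Gm31623, and whether the counting told their reads apart is not given in the sources used here. The promoter sequences of Dnmt1 and Uhrf1 are shown because of their differences between cell cycle calls within a class. Uhrf1 carried the largest of these, and Dnmt1 the next largest except between replicating and dividing IPCs, where other members differed more. Dnmt1 and Uhrf1 alone among the matched members also hold the letters of an E2F-type motif, the binding sequence of a family of factors that act on genes of DNA replication. RefSeq promoter windows (GRCm38.p6, the assembly also called mm10, to which the submitters' processing notes refer) run from 250 bases before to 50 bases after an annotated start. They matched 8 of the 9 members, with 13 windows. Capitals mark the matches to any of TTTCCCGC, TTTCGCGC, TTTGCCGC and TTTGGCGC on either strand, and no match overlapped another.
Dnmt1, chr9:20952574-20952873, minus strand: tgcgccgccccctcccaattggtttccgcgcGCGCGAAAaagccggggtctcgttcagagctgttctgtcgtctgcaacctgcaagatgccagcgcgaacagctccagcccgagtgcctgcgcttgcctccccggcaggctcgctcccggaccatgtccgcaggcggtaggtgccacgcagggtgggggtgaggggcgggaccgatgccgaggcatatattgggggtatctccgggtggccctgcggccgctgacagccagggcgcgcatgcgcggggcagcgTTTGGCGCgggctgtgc
Uhrf1, chr17:56304063-56304362, plus strand: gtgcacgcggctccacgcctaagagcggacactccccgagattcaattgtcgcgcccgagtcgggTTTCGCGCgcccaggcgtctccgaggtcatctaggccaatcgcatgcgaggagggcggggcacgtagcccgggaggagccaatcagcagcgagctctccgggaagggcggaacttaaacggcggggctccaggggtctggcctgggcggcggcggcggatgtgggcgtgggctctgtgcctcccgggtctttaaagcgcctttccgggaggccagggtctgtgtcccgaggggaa
The Dnmt1 window held TTTCGCGC read on the opposite strand from its base 32, and TTTGGCGC from base 284. The Uhrf1 window held TTTCGCGC from base 66. The other windows of Dnmt1 and Uhrf1 and those of Dnmt3a, Dnmt3b, Tet1, Tet2, Tet3 and Mbd3 held none. Of all 32851 windows, 744 (2.26%) held at least 1 of these motifs. Each of these motifs contains a CpG, and the share was not matched for CpG. Both printed windows were rich in CpG, with 33 CpG dinucleotides each, against a median of 7 and an upper quartile of 20 over all windows. They lay inside the gene spans. The window at the outer start of the Dnmt1 span held 2 CpG and that of the Uhrf1 span 12, and the remaining Dnmt1 window held 12. Tet2 had 57 and the windows of Dnmt3a between 18 and 47. A match of letters is a description and not a binding site.

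The tables held 1712 barcodes and 40267872 UMIs in replicate 2, and 2589 barcodes and 49422007 UMIs in replicate 4. After filtering, 1197 and 1956 cells were retained, with a median of 30810 and 22948.5 UMIs. Only 3 barcodes occurred in both libraries. Clustering without the members and their related genes gave 24 clusters, named from marker genes. RGC-like cells (177 in replicate 2 and 308 in replicate 4) raised 10 of 10 RGC markers in both of their clusters, IPC-like cells (207 and 354) 7 or 8 of 8, and excitatory neuron-like cells (496 and 744) 8 or 9 of 10. MGE interneuron-like cells (54 and 82) raised 4 to 7 of 9 markers of their sub-class. An IPC-like cluster of 269 cells also raised 6 of 10 excitatory neuron markers, another of 193 cells raised 8 of 10 RGC markers and 3 of 10 of excitatory neurons, and the third, a dividing cluster of 99 cells, 5 of 10 excitatory neuron and 3 of 10 RGC markers. Below, the first is called the cluster with most neuronal markers and the second the cluster with most RGC markers. The summed RGC markers stood at 958 and 831 counts per 1e+06 UMIs (CPM) in IPC-like cells, against 5552 and 4787 in RGC-like cells. The summed excitatory neuron markers stood at 2302 and 2600 CPM in IPC-like cells, against 7776 and 7938 in excitatory neuron-like cells. In IPC-like cells this sum lay above that of the IPC markers, at 2110 and 2090 CPM. A fit without the cluster with most neuronal markers is among the alternatives. Hemoglobin and other erythroid genes, 7 in all, summed to 70.3 CPM in RGC-like cells of replicate 2 and to 2973 in those of replicate 4.

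Levels are given as CPM, counts of a gene per 1e+06 UMIs of the class, and they are compared across classes for each gene, not between genes. The maintenance genes were highest in RGC-like cells. Dnmt1 stood at 124 CPM in replicate 2 and 126 in replicate 4 in RGC-like cells (125 ± 1.45, SD, n = 2), and at 49.3 and 49.5 in IPC-like cells. In excitatory neuron-like cells it was at 39.1 and 37.9 CPM, and in MGE interneuron-like cells at 54.6 and 45.4. Its class means spanned a 3.25-fold range. Of the barcodes left out for holding under 1000 genes, those with over 50% hemoglobin UMIs had 1 and 2 UMIs of Dnmt1, or 3.31 and 3.12 CPM, and 0 of Uhrf1, and the part of free RNA in the levels was not tested further. Uhrf1 was at 109 and 115 CPM in RGC-like cells, at 15.9 and 25.3 in IPC-like cells, at 3.21 and 5.34 in MGE interneuron-like cells and at 1.85 and 2.67 in excitatory neuron-like cells. Its class means spanned a 49.6-fold range, the low end of which rests on 33 and 52 UMIs in excitatory neuron-like cells. In the order of classes for Dnmt1, MGE interneuron-like and IPC-like cells overlapped between libraries, as did RGC-like cells and GABAergic neuron-like cells left with no sub-class, which stood at 78.2 and 139.5 CPM. The latter mix 3 sub-clusters. A dividing sub-cluster led by Top2a, Ccnd2 and Mki67 (6 and 39 cells) held Dnmt1 at 167 and 191 CPM and Uhrf1 at 107.5 and 101 CPM, whereas Dnmt1 was at 27.3 and 61.1 CPM in a sub-cluster led by Ccnd2 and Egfem1 (18 and 8 cells) and at 69.0 CPM in the last, which had cells of replicate 4 only.

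**Figure D1:**
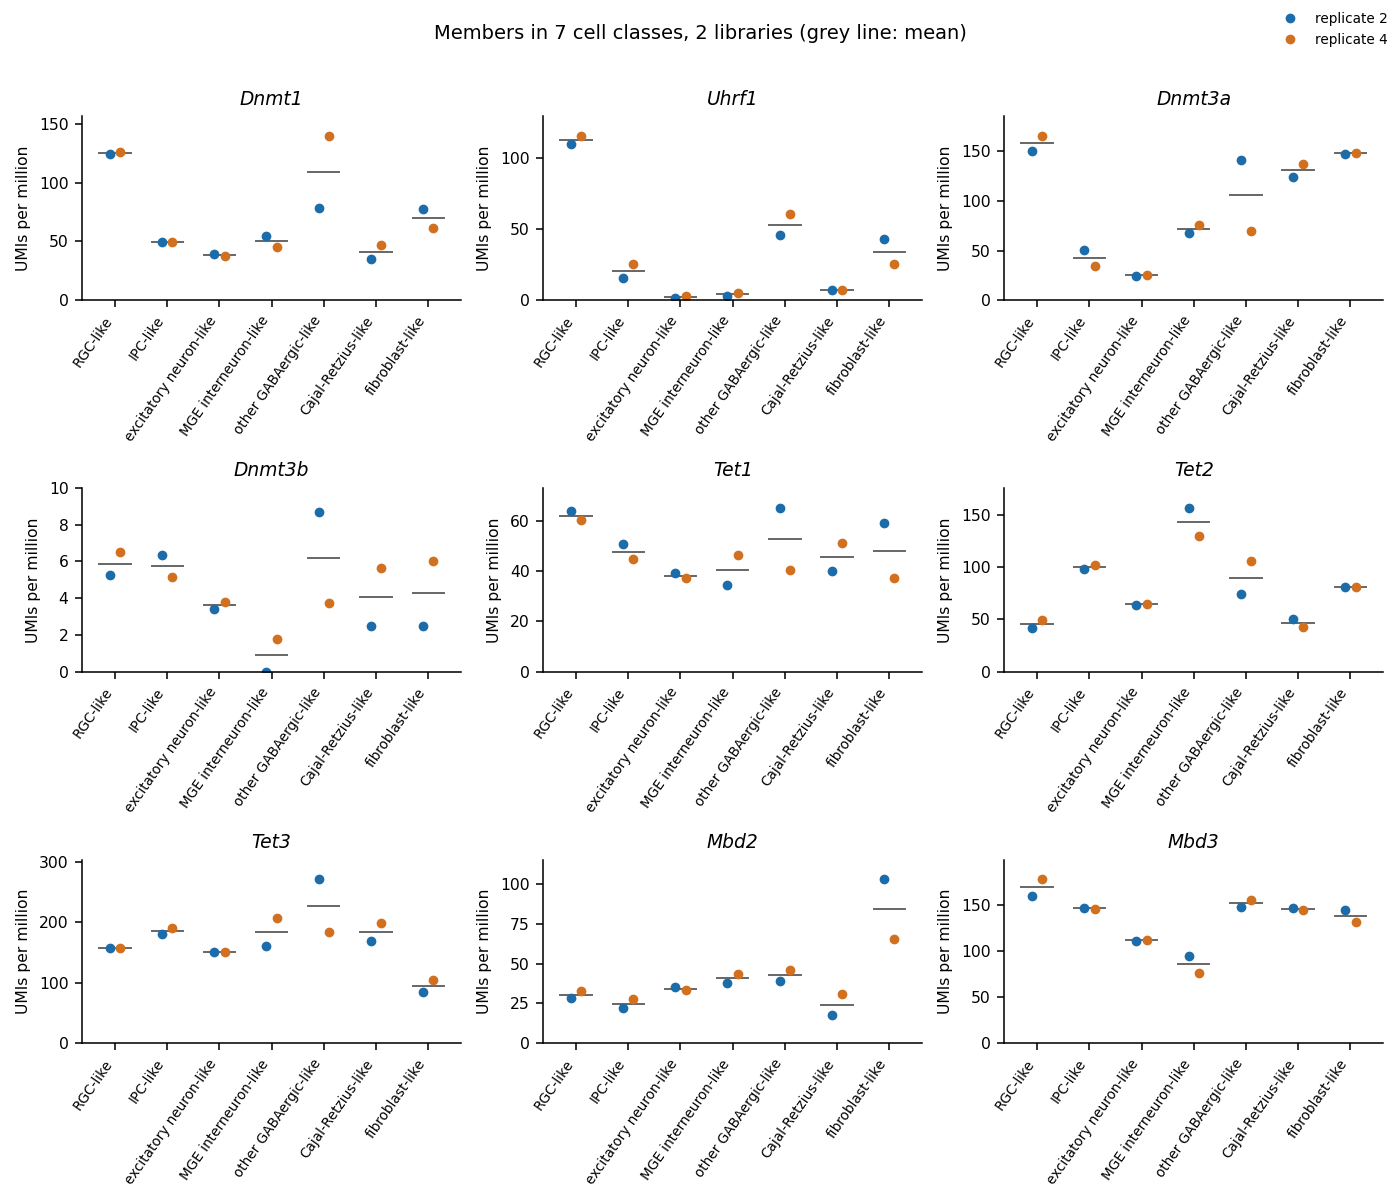
Levels in CPM (axis: UMIs of the gene per 1e+06 UMIs) of the 9 members in 7 cell classes, with a point for each library and a grey line at their mean. By mean, Dnmt1, Uhrf1 and Dnmt3a are highest in RGC-like cells, and Tet2 in MGE interneuron-like cells at 130.0 to 157 CPM. Dnmt3b stays under 10 CPM in each of these classes.

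Between RGC-like and IPC-like cells, 4 of the 8 members tested passed the threshold, in a comparison that called 39.0% of 12436 genes. Uhrf1 was higher in RGC-like cells with a log2 fold change of 2.34 ± 0.23 (SE; adjusted p = 2.38e-05, edgeR's quasi-likelihood test with Benjamini-Hochberg adjustment), Dnmt1 with 1.25 ± 0.20 (adjusted p = 0.00053, edgeR) and Dnmt3a with 1.81 ± 0.26 (adjusted p = 0.000238, edgeR). Tet2 went the other way, at -1.22 ± 0.16 (adjusted p = 0.000122, edgeR). These 4 calls were kept under all 15 alternatives with a test. Between IPC-like and excitatory neuron-like cells, 3 of 8 members were called, against 36.0% of all genes. Uhrf1 was 8.27-fold higher in IPC-like cells (log2 fold change 3.05 ± 0.27, adjusted p = 9.21e-06, edgeR), whereas Dnmt1 differed by only 0.23 ± 0.20 and did not pass (adjusted p = 0.408, edgeR; 0.0273 to 0.905 over the alternatives). Of these, only the fit without the IPC-like cluster with most neuronal markers, added after the data had been seen, called Dnmt1 (adjusted p = 0.0273, edgeR).

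The maintenance genes also differed between cell cycle calls. RGC-like and IPC-like cells were divided into S-like (replicating), G2/M-like (dividing) and G1-like (neither score raised) cells. The calls came from 38 S and 53 G2/M genes, with members and related genes left out of the lists. Genes that move with replication, such as Uhrf1, are thus set apart in part by the calls themselves. Their rise in S-like cells is a description. RGC-like cells counted 205 S-like, 199 G2/M-like and 81 G1-like cells, and IPC-like cells 51, 81 and 429. Dnmt1 in RGC-like cells was at 190.5 and 174.5 CPM when S-like, at 96.0 and 106 when G2/M-like and at 26.3 and 24.4 when G1-like. In IPC-like cells it followed the same order, with 143 and 139 CPM when S-like, 87.9 and 104 when G2/M-like and 31.7 and 25.3 when G1-like. The libraries of neighbouring phases did not overlap in either class. Uhrf1 was at 209 and 208 CPM in S-like RGC-like cells, at 45.3 and 61.8 in G2/M-like and at 15.4 and 8.97 in G1-like cells. In IPC-like cells Uhrf1 ran from 114 and 164 CPM through 27.2 and 36.4 to 2.25 and 3.41, the last resting on 11 and 21 UMIs.

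**Figure D2:**
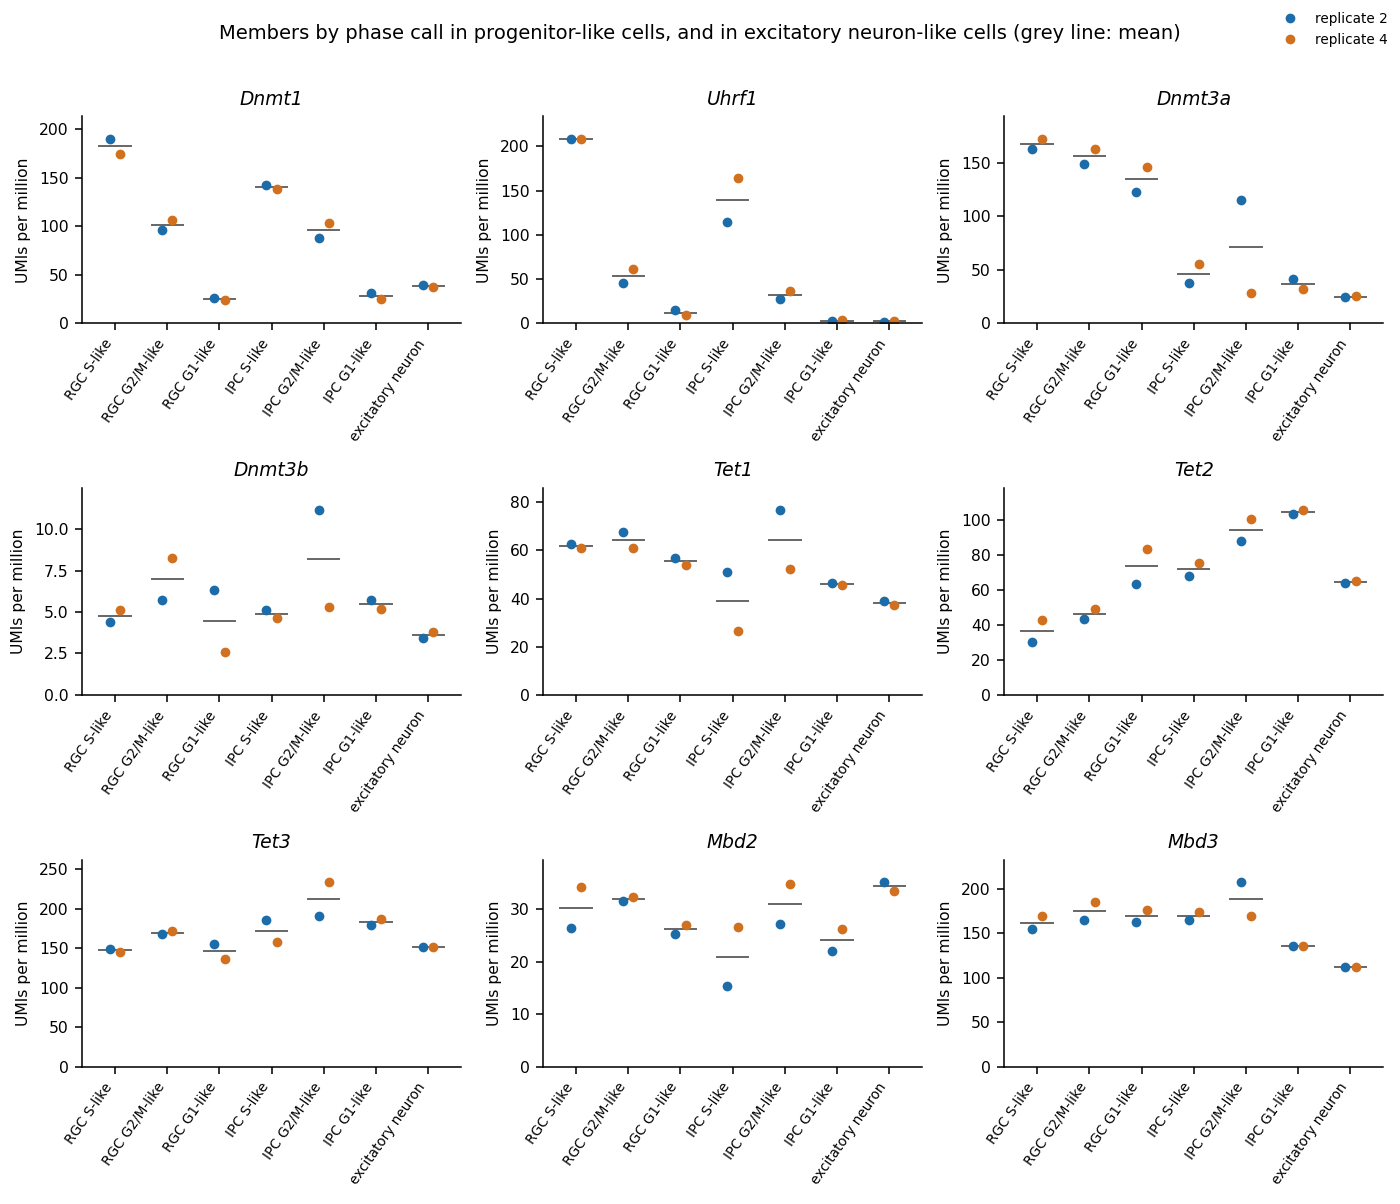
Levels in CPM of the 9 members by phase call in RGC-like and IPC-like cells, beside excitatory neuron-like cells, with a point for each library and a grey line at their mean. Dnmt1 and Uhrf1 step down from S-like to G1-like cells in both progenitor classes, Dnmt3a lies higher in each phase of RGC-like cells than in S-like and G1-like IPC-like cells, and a single cell lifts Dnmt3a of replicate 2 to 115 CPM in G2/M-like IPC-like cells.

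Between S-like and G2/M-like RGC-like cells, 2 of 9 members were called, Uhrf1 and Dnmt1, against 3.20% of 12618 genes. The log2 fold changes were 1.98 ± 0.23 for Uhrf1 (adjusted p = 7.29e-05, edgeR) and 0.88 ± 0.19 for Dnmt1 (adjusted p = 0.0118, edgeR), and both calls were kept under all 17 alternatives. These phases lay in different clusters too: 159 of 199 G2/M-like cells (79.9%) were in the RGC-like cluster with Top2a and Mki67, genes of division, among its leading genes, and 139 of 205 S-like cells (67.8%) and all 81 G1-like cells in the other. In IPC-like cells the same comparison called 1 of 9 members, against 9.54% of all genes. Uhrf1 was higher in S-like cells by 2.06 ± 0.29 (adjusted p = 0.000271, edgeR), and Dnmt1 differed by 0.49 ± 0.21 (adjusted p = 0.165, edgeR; 0.0872 to 0.439 over the alternatives). Whether the difference between S-like and G2/M-like cells is itself different in the progenitor classes was tested as an interaction, which called 0 of 9 members and 0.214% of all genes, while 1409 genes had an unadjusted p under 0.05. With the library as a block the interaction called 62 genes, again without a member. For Dnmt1 this interaction was 0.39 ± 0.28 (adjusted p = 0.661, edgeR), and for Uhrf1 -0.08 ± 0.37 (adjusted p = 1.0, edgeR). No member passed in any of the 17 alternatives, DESeq2 included.

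Against G1-like IPC-like cells, S-like IPC-like cells differed in 3 of 9 members, with 16.6% of all genes called. Uhrf1 was higher in S-like cells with a log2 fold change of 5.50 ± 0.32 (adjusted p = 7.25e-09, edgeR), a size that depends on the few UMIs of the G1-like cells, and Dnmt1 was 4.63-fold higher (2.21 ± 0.21, adjusted p = 1.17e-06, edgeR). The phases of IPC-like cells also lay in different clusters. Of the G1-like cells, 264 of 429 (61.5%) were in the cluster with most neuronal markers and 164 in the cluster with most RGC markers, whereas 78 of 81 G2/M-like cells were in the dividing cluster, and S-like cells were split between the cluster with most RGC markers (29 of 51) and the dividing cluster (20). Without the cluster with most neuronal markers, an alternative added after the data had been seen, the differences were 4.78 in Uhrf1 and 2.19 in Dnmt1 (adjusted p = 1.31e-07 and 3.26e-06, edgeR), while Tet2 no longer passed (-0.71, adjusted p = 0.0509, edgeR) and Dnmt3a, Tet1 and Mbd2, none of which had passed, turned their sign. Among S-like cells, the phase in which the classes were compared by a test, the class difference did not pass in either gene. S-like RGC-like cells exceeded S-like IPC-like cells by 0.41 ± 0.20 in Dnmt1 (adjusted p = 0.201, edgeR) and by 0.60 ± 0.24 in Uhrf1 (adjusted p = 0.117, edgeR), while 2 of 9 members, Dnmt3a and Tet2, were called, against 12.3% of all genes. Among G1-like cells, not tested, Uhrf1 was at 15.4 and 8.97 CPM in RGC-like and at 2.25 and 3.41 in IPC-like cells, without overlap. The phases were unevenly spread over the classes, with 429 of 561 IPC-like cells called G1-like and 81 of 485 RGC-like cells. The phase calls rest on other genes of the same cells, and 8.78% of S-like and 19.8% of G1-like RGC-like cells lay within 0.05 of the score at which the call changes.

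Excitatory neuron-like cells, which have left the cell cycle, stood slightly above the G1-like cells of both progenitor classes in Dnmt1, without passing the test against those that are IPC-like, most of which were in the cluster with most neuronal markers. They held 39.1 and 37.9 CPM, against 31.7 and 25.3 in G1-like IPC-like cells and 26.3 and 24.4 in G1-like RGC-like cells, and the libraries did not overlap. The log2 fold change against G1-like IPC-like cells was 0.51 ± 0.19 and missed the threshold (adjusted p = 0.0531, edgeR). It was called in 14 of 17 alternatives (adjusted p from 0.00517 to 0.067), among them the fit with the library as a block (adjusted p = 0.0435, edgeR), but not without the cluster with most neuronal markers (0.49, adjusted p = 0.067, edgeR). Uhrf1 differed by -0.27 ± 0.36 in the same comparison (adjusted p = 0.627, edgeR), and 2 of 9 members were called, against 30.9% of all genes. Seen per cell, with each cell thinned to 5000 UMIs, a Uhrf1 UMI was found in 60.0% and 61.6% of S-like RGC-like cells and in 44.4% and 62.5% of S-like IPC-like cells. In G1-like IPC-like cells the share was 1.27% and 1.90%, and in excitatory neuron-like cells, which do not replicate their DNA, 1.02% and 1.11%. The share in G1-like IPC-like cells was thus near that in a class that does not replicate, and no expression is read from it. Median depths before thinning were 30268, 27596, 25473 and 28582.5 UMIs in the same order, and the unthinned shares 92.3%, 78.3%, 5.96% and 6.02%. Thinning left out 5, 1, 8 and 26 shallower cells. For Dnmt1 the thinned share was 58.4% in S-like RGC-like cells (mean of the libraries), 11.5% in G1-like IPC-like cells and 16.0% in excitatory neuron-like cells.

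Among the de novo methyltransferases, Dnmt3a differed between the classes, and no difference between phases passed. It stood at 150.6 and 165 CPM in RGC-like cells, at 50.7 and 34.2 in IPC-like cells and at 24.3 and 25.6 in excitatory neuron-like cells. Within RGC-like cells it was at 163 and 173 CPM when S-like, at 149 and 163 when G2/M-like and at 123 and 146 when G1-like, and the difference between S-like and G2/M-like cells was 0.13 ± 0.35 (adjusted p = 0.932, edgeR). At the S-like call, RGC-like cells exceeded IPC-like cells 3.63-fold, with 37.5 and 55.4 CPM in the latter (log2 fold change 1.86 ± 0.43, adjusted p = 0.00835, edgeR), a call kept under all 17 alternatives. Within IPC-like cells it was at 65.9 and 49.2 CPM in the cluster with most RGC markers and at 18.8 and 26.0 in the cluster with most neuronal markers, without a test. Dnmt3a was also high outside the excitatory lineage, at 147 and 149 CPM in meningeal fibroblast-like cells and 125 and 137 in Cajal-Retzius cell-like cells, a type of early-born neuron at the cortical surface. MGE interneuron-like cells, with 67.5 and 75.7 CPM, exceeded excitatory neuron-like cells by 1.47 ± 0.28 (adjusted p = 0.00332, edgeR).

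A single cell governed 1 of these values. Of 93 Dnmt3a UMIs in the 27 G2/M-like IPC-like cells of replicate 2, 76 came from the same cell, which held 37332 UMIs in all, and the next cell had 4. Without it the level fell from 115 to 22.1 CPM, against 28.1 in replicate 4, and the level over all IPC-like cells of replicate 2 fell from 50.7 to 38.9 CPM. Leaving the cell out, an alternative added after the data had been seen, turned the S-like against G2/M-like difference of Dnmt3a in IPC-like cells from -0.56 ± 0.47 to 0.84, neither of which passed (adjusted p = 0.526 and 0.121, edgeR), and raised that between RGC-like and IPC-like cells from 1.81 to 2.02. Between IPC-like and excitatory neuron-like cells Dnmt3a did not pass with the cell (0.63 ± 0.26, adjusted p = 0.0765, edgeR) or without it (0.42, adjusted p = 0.188, edgeR), and 6 of 15 alternatives called it.

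Dnmt3b was scarce, with 34 and 58 UMIs over all RGC-like cells (5.26 and 6.50 CPM), 40 and 43 over IPC-like cells (6.36 and 5.15 CPM) and 61 and 74 over excitatory neuron-like cells (3.43 and 3.80 CPM). In MGE interneuron-like cells 0 and 2 UMIs were counted, and a count of 0 allows up to 3. It fell below the filter on low counts in the fit of classes and was not tested there. In the fit of phases it entered and did not pass. Its log2 fold changes between groups ran from -0.73 ± 0.70 for S-like against G2/M-like IPC-like cells to 0.02 ± 0.67 for S-like RGC-like against S-like IPC-like cells, and the interaction was 0.19 ± 0.86.

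Among the erasers, Tet2 differed most often between the groups, with another order of the classes. Among the 7 classes of the fit, it was lowest in RGC-like cells, at 41.3 and 49.5 CPM, and in Cajal-Retzius cell-like cells, whose libraries overlapped with these. It reached 97.8 and 101 CPM in IPC-like cells. Excitatory neuron-like cells held 64.1 and 65.0 CPM, and MGE interneuron-like cells 157 and 130.0, the highest of the 7 classes, with no overlap with the next. MGE interneuron-like cells exceeded excitatory neuron-like cells 2.15-fold (log2 fold change 1.10 ± 0.16, adjusted p = 0.000608, edgeR), kept under all 15 alternatives. In that comparison 3 of 8 members were called, Tet2, Dnmt3a and Mbd3, against 19.3% of all genes. IPC-like cells exceeded excitatory neuron-like cells by 0.50 ± 0.15 in Tet2 (adjusted p = 0.0256, edgeR), a call lost in 2 of 15 alternatives (adjusted p from 0.00169 to 0.114).

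Tet2 also differed between the progenitor classes at a matched phase. S-like RGC-like cells, at 30.4 and 43.0 CPM, were below S-like IPC-like cells, at 68.1 and 75.1, by 0.92 ± 0.21 on the log2 scale (adjusted p = 0.00709, edgeR; lost in 2 of 17 alternatives, adjusted p up to 0.175). Within RGC-like cells Tet2 was at 43.4 and 48.8 CPM when G2/M-like and at 63.4 and 83.3 when G1-like. Within IPC-like cells it was at 87.9 and 100.1 CPM when G2/M-like and at 103 and 105 when G1-like, and S-like cells were below G1-like cells by 0.63 ± 0.20 (adjusted p = 0.036, edgeR), a call lost in 8 of 17 alternatives. Excitatory neuron-like cells fell below G1-like IPC-like cells by 0.62 ± 0.17 (adjusted p = 0.00947, edgeR; lost in 3 of 17 alternatives, adjusted p up to 0.084). Among the 7 excitatory neuron-like clusters Tet2 was at 117 and 132 CPM in the cluster led by Unc5d, Slc17a6 and Neurod1 and at 37.1 and 34.6 in a cluster led by Lrfn5, Rgs6 and Hs3st4, which gives the spread within the class without a test, since clusters were formed from the same cells.

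**Figure D3:**
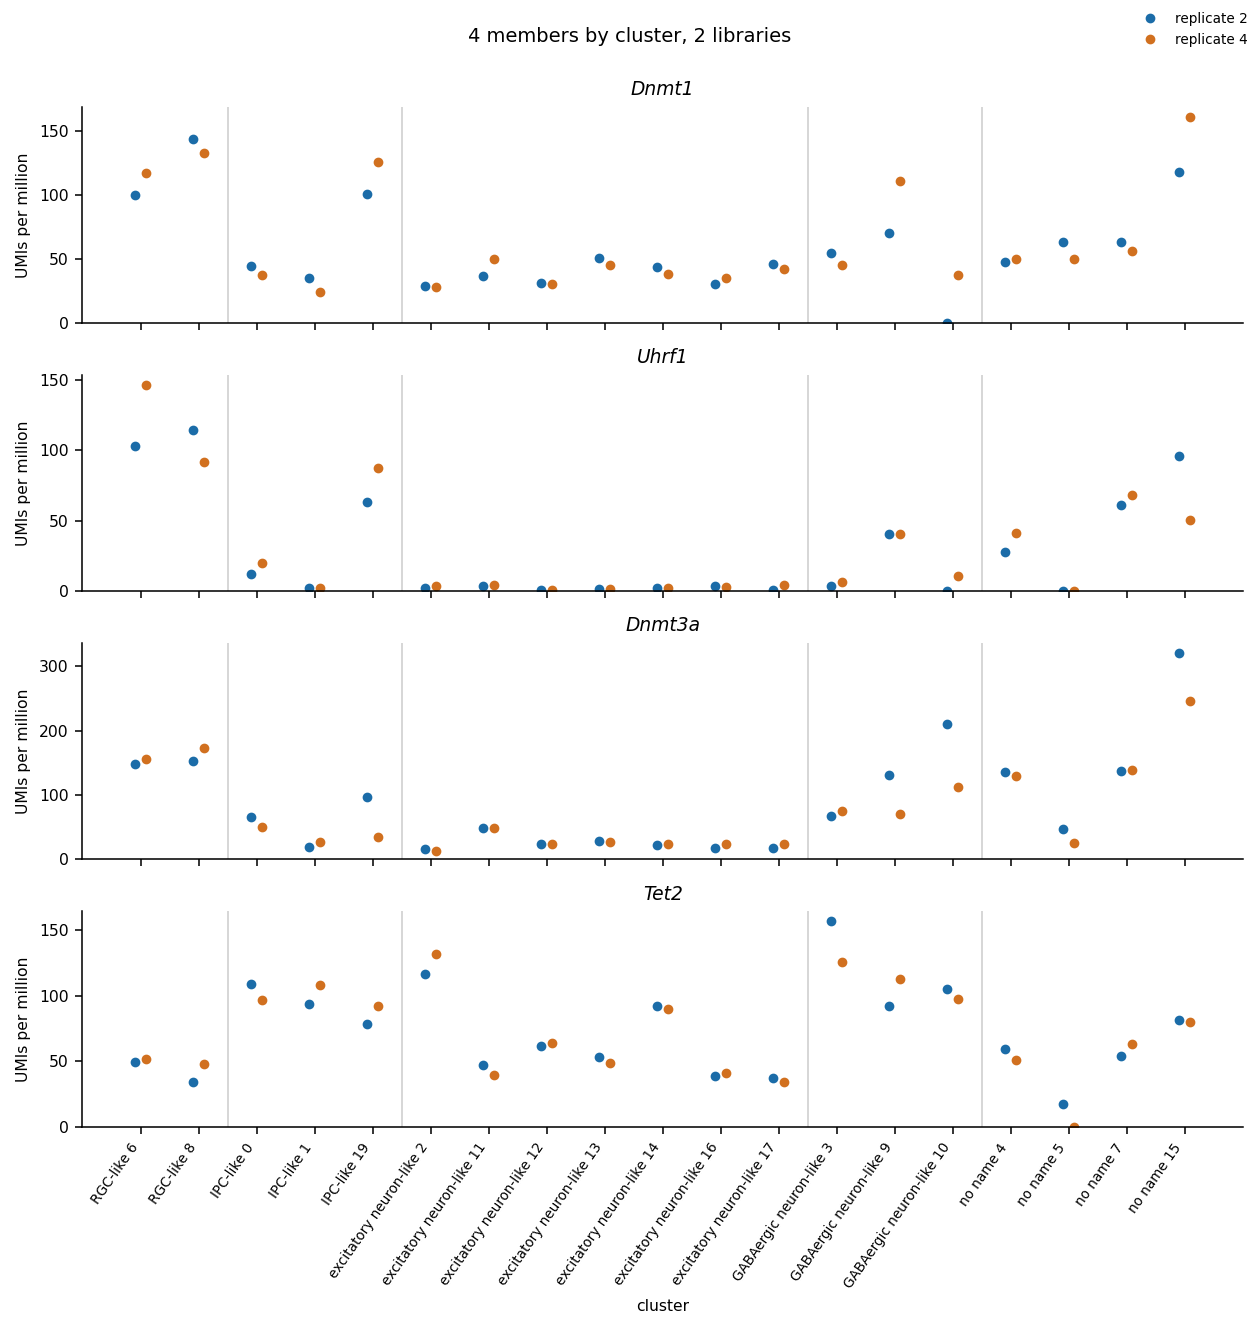
Levels in CPM of Dnmt1, Uhrf1, Dnmt3a and Tet2 in 19 clusters of RGC-like, IPC-like, excitatory neuron-like and GABAergic neuron-like cells and clusters without a name, with a point for each library. Uhrf1 is near 0 in each excitatory neuron-like cluster while Dnmt1 stays between 27.8 and 50.2 CPM, and Tet2 ranges from 34.6 to 132 CPM in them. Cluster 10 holds a single cell of replicate 2.

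Tet1 and Tet3 varied less. Tet1 class means lay between 38.1 CPM in excitatory neuron-like and 62.0 in RGC-like cells, a 1.63-fold range in which all neighbours in the order overlapped between libraries, and it passed in 0 of 9 comparisons. Within IPC-like cells Tet1 was at 31.0 and 25.7 CPM in the cluster with most RGC markers and at 61.5 and 54.1 in the cluster with most neuronal markers. Tet3 lay at 158 CPM in RGC-like cells of both libraries, at 181 and 191.5 in IPC-like cells and at 151 in excitatory neuron-like cells of both, and at 85.5 and 106 in meningeal fibroblast-like cells. It passed in 0 of 9 comparisons too, with a log2 fold change of -0.33 ± 0.19 between RGC-like and IPC-like cells (adjusted p = 0.197, edgeR) that 1 of 15 alternatives called.

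Of the readers, Mbd3 was at 160.1 and 178 CPM in RGC-like cells, at 147 and 145 in IPC-like cells and at 111 and 112 in excitatory neuron-like cells. The libraries of these classes did not overlap, but neither step passed, at 0.12 ± 0.12 (adjusted p = 0.491, edgeR) and 0.26 ± 0.12 (adjusted p = 0.131, edgeR). MGE interneuron-like cells, at 94.8 and 76.6 CPM, were below excitatory neuron-like cells by 0.43 ± 0.13 (adjusted p = 0.0446, edgeR), a call lost in 9 of 15 alternatives. Mbd2 was at 28.3 and 32.6 CPM in RGC-like cells, at 22.1 and 27.6 in IPC-like cells and at 35.2 and 33.4 in excitatory neuron-like cells. IPC-like cells were below excitatory neuron-like cells by 0.59 ± 0.20 (adjusted p = 0.0376, edgeR; lost in 2 of 15 alternatives), and G1-like IPC-like cells, at 22.1 and 26.1 CPM, by 0.57 ± 0.21 (adjusted p = 0.0486, edgeR; lost in 4 of 17). Among the 7 classes of the fit, meningeal fibroblast-like cells held the most Mbd2, at 103 and 65.3 CPM.

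**Figure D4:**
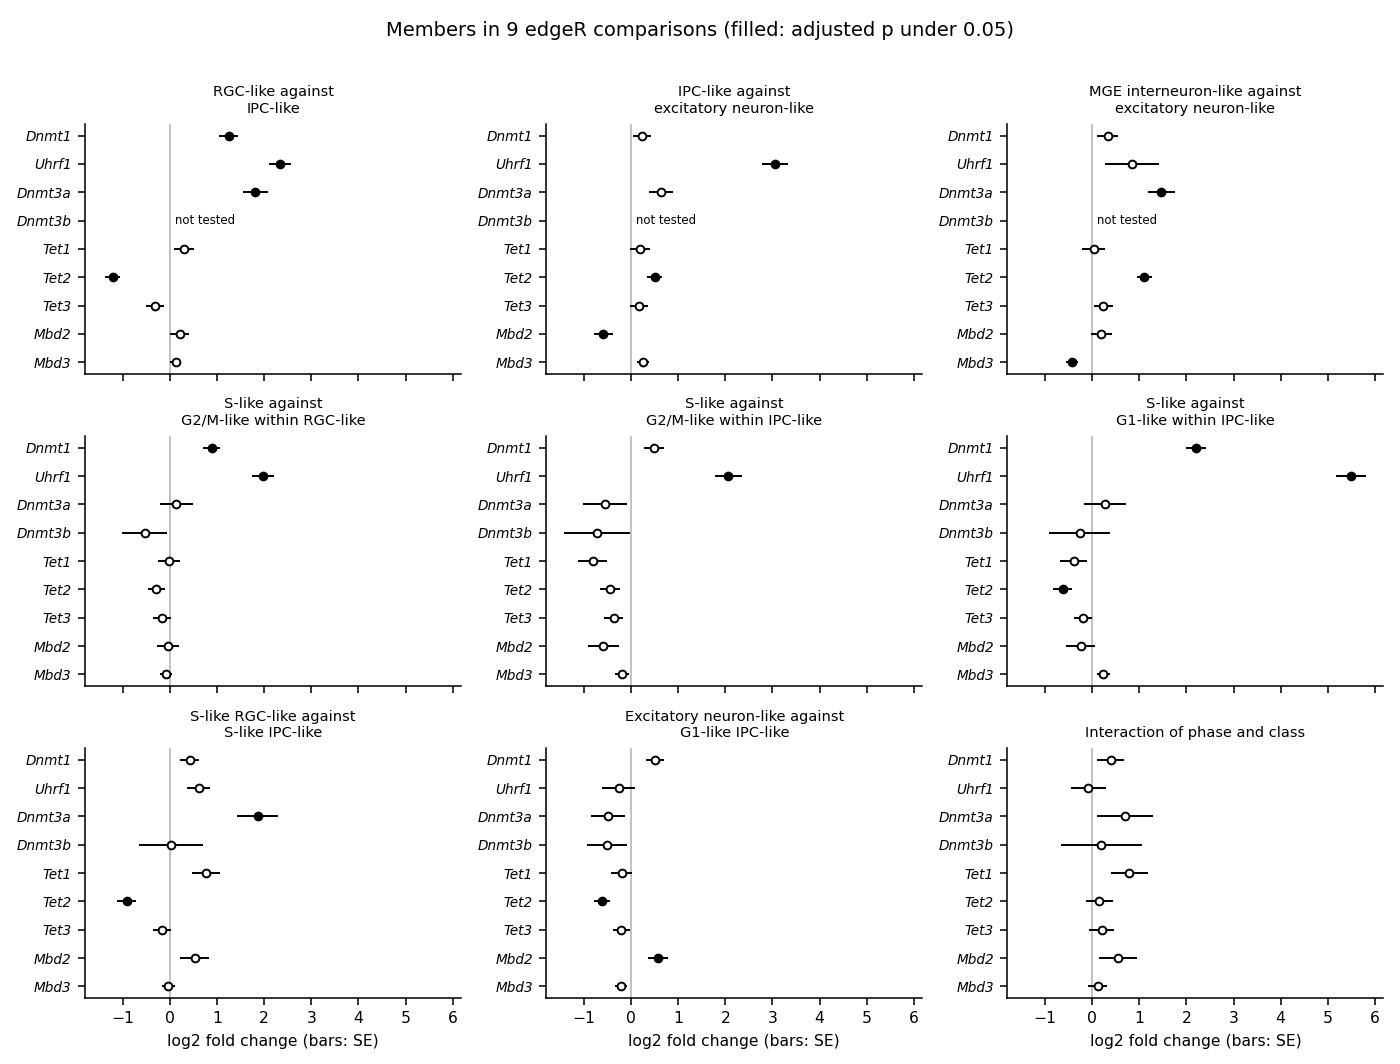
Log2 fold changes of the members with their standard errors in 8 comparisons and the interaction, with filled points for an adjusted p under 0.05 in edgeR. Uhrf1 is filled in 5 of the panels and Tet2 in 6, with both signs, while Tet1, Tet3 and Dnmt3b are open wherever they were tested.

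Genes that work beside the members were followed as 6 lists. The list of replication-coupled maintenance holds partners of Dnmt1 and Uhrf1 at the replication fork, such as Pcna, the sliding clamp, and Lig1, the ligase that joins newly made strands. Of its 7 tested genes, 5 were higher in RGC-like than in IPC-like cells (39.0% of all genes called) and 6 higher in IPC-like than in excitatory neuron-like cells (36.0%), with none lower, and the medians of the list were 1.82 and 1.98 on the log2 scale against -0.0071 and 0.0016 over all genes. S-like cells exceeded G2/M-like cells in 4 of 7 in either progenitor class, against 3.20% of all genes called in RGC-like and 9.54% in IPC-like cells, and S-like exceeded G1-like IPC-like cells in 5 of 7, against 16.6%. Since the phase calls rest on other genes of replication, these S-like counts are partly set by the calls and say little about the list. S-like RGC-like against S-like IPC-like cells gave 1 of 7, near the 12.3% of all genes, Cdca7l, an interactor of Myc and relative of Cdca7, at 42.1 and 39.9 CPM against 17.0 and 8.08 (adjusted p = 0.0493, edgeR). Excitatory neuron-like cells were lower than G1-like IPC-like cells in 3 of 7 (30.9% of all genes called). MGE interneuron-like cells exceeded excitatory neuron-like cells in 1 of 7, near the 19.3% of all genes, Cdca7, the activator of the remodeller Hells, at 37.7 and 41.9 CPM against 3.15 and 4.37 (log2 fold change 3.34 ± 0.22, adjusted p = 2.58e-06, edgeR).

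In the list of demethylation and base excision repair (10 tested), 2 genes were higher and 3 lower in RGC-like than in IPC-like cells, where 39.0% of all genes were called, and 3 higher in IPC-like than in excitatory neuron-like cells, where 36.0% were. Neither count says anything particular about the list. Gadd45g, a growth arrest gene tied to neurogenesis, led both, at 384.5 and 344 CPM in IPC-like cells against 46.0 and 39.3 in RGC-like and 22.9 and 25.3 in excitatory neuron-like cells (log2 fold changes -3.19 ± 0.34 and 3.79 ± 0.34, adjusted p = 3.42e-05 and 9.28e-06, edgeR). In S-like IPC-like cells it reached 541.5 and 679 CPM, against 6.96 and 24.1 in S-like RGC-like cells. Ung, which removes uracil from newly made DNA, was at 83.5 and 80.9 CPM in S-like and 1.14 and 2.39 in G2/M-like RGC-like cells (log2 fold change 5.43 ± 0.46, adjusted p = 4.07e-06, edgeR), the 1 gene of this list called there (3.20% of all genes). Among IPC-like cells, 3 genes of it were higher in S-like than in G2/M-like cells (9.54% of all genes called) and 4 than in G1-like cells (16.6%). For Ung and other genes of replication, such differences are partly set by the phase calls. Of the other comparisons, MGE interneuron-like cells were lower than excitatory neuron-like cells in 2 (19.3% of all genes called), S-like RGC-like lower than S-like IPC-like cells in 2 (12.3%), and excitatory neuron-like lower than G1-like IPC-like cells in 2 (30.9%).

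Of the other methyl-CpG readers (8 tested), 1 was higher and 3 lower in RGC-like than in IPC-like cells (39.0% of all genes called), and 3 higher and 1 lower in IPC-like than in excitatory neuron-like cells (36.0%). Zbtb38, a zinc finger protein that binds methylated CpG, was at 17.0 and 12.4 CPM in RGC-like and at 119 and 112 in IPC-like cells (log2 fold change -3.07 ± 0.27, adjusted p = 9.11e-06, edgeR), and within IPC-like cells at 39.2 and 40.4 when S-like against 125.5 and 126 when G1-like. The NuRD complex (13 tested) had 1 gene higher and 5 lower in RGC-like than in IPC-like cells, and 5 higher and 2 lower in IPC-like than in excitatory neuron-like cells, against the same shares over all genes. Its helicase Chd5, known from neurons, was at 1.91 and 1.20 CPM in IPC-like and at 13.1 and 11.1 in excitatory neuron-like cells (log2 fold change -3.11 ± 0.47, adjusted p = 0.000345, edgeR). None of its 13 genes passed between S-like and G2/M-like cells in either class by edgeR. Of the de novo and Tet partners (5 tested), 0 were higher and 2 lower in RGC-like than in IPC-like cells (39.0% of all genes called). Among them Cxxc4 and Cxxc5, CXXC domain proteins related to the Tet family, parted between MGE interneuron-like and excitatory neuron-like cells: Cxxc4 was at 122 and 76.6 against 12.5 and 11.4 CPM (log2 fold change 3.01 ± 0.32, adjusted p = 6.38e-05, edgeR) and Cxxc5 at 2.41 and 3.56 against 23.3 and 25.9 (-3.09 ± 0.52, adjusted p = 0.00152, edgeR). Of the methyl donor supply (8 tested), 4 were higher and 1 lower in RGC-like than in IPC-like cells (39.0% of all genes called), with Shmt1, a serine hydroxymethyltransferase, at 28.6 and 37.0 against 5.25 and 7.31 CPM (log2 fold change 2.28 ± 0.30, adjusted p = 0.000129, edgeR).

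Across the 11 classes and phases of the second fit, levels averaged over the libraries on the scale of log2(CPM + 10) were compared by Pearson's r, as a description. The sums share their libraries, and phases were called from genes of the cycle. Uhrf1 was most like Lig1 (r = 0.993), Pcna (0.988) and Zfp367 (0.987), and Dnmt1 most like Rad18 (0.974), Cenpu (0.973), which is 1 of the genes used for the S score, and Pole (0.971). Dnmt1 and Uhrf1 had r = 0.929 with each other, and Dnmt1 and Dnmt3a 0.277. Dnmt3a was most like Elmsan1 (0.941), Ammecr1 (0.912) and Mid1ip1 (0.904), and Tet2 most like Abi1 (0.93), Gcc1 (0.908) and Gm40841 (0.898). Tet2 had negative values with Dnmt1 (-0.356), Uhrf1 (-0.477) and Dnmt3a (-0.477). For the members with little variation the leading genes were Arhgap18 (0.896), 2500002B13Rik (0.889) and Hdac3 (0.888) for Tet1, Zbed4 (0.963), Gnb1 (0.956) and Fam168b (0.941) for Tet3, Mrpl44 (0.932), H1f0 (0.92) and Smu1 (0.906) for Dnmt3b, Fbn2 (0.939), Rnft1 (0.937) and Plat (0.936) for Mbd2, and Sarnp (0.952), Ldlrad3 (0.945) and Gli2 (0.945) for Mbd3.

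MGE interneuron-like cells are the named class that includes somatostatin neurons, the cell type in which the study deleted Dnmt1 in other animals. In its sub-cluster led by Sst and Nxph1 (17 and 24 cells), Dnmt1 was at 56.0 and 50.1 CPM, Dnmt3a at 75.4 and 83.5 and Tet2 at 133.5 and 91.8. Uhrf1 had 0 UMIs there in both libraries, where a count of 0 allows up to 3 each. A further sub-cluster of 30 cells, all of replicate 4, was led by Il1rapl2 and Sst but got no sub-class name and is outside that class, with Dnmt1 at 69.0 CPM, Dnmt3a at 79.8, Tet2 at 81.9 and 0 Uhrf1 UMIs.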

How the data were processed

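Per the labels and the methods of the study, the authors prepared droplet libraries that capture 3′ ends and processed them with Cell Ranger 7.0.0 on mm10. They deposited raw UMI counts per gene and barcode, without normalization. Whether intronic reads were counted is not given in the sources used here. According to RefSeq, Dnmt1, Dnmt3a, Tet1, Tet3, Mbd2 and Mbd3 overlap other genes, and how reads in such overlaps were assigned is not given in the sources used here either.

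Cells were barcodes with 1000 or more genes and a mitochondrial share of UMIs of up to 10%, and 14 and 15 doublets called by Scrublet were left out. After scaling each cell to 10000 UMIs and taking logs, 2000 variable genes without the members and related genes gave 30 principal components and Leiden clusters at resolution 1 (scanpy 1.11.5). Naming a cluster took 3 markers that exceeded the median cluster by 1 or more on the log2 scale and were found in 25% or more of its cells. Clusters led by other genes, and shallow ones, stayed without a name, a rule revised after the first clustering had been seen. These names were made anew and need not match those of the study.

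For each library, counts were added up by class (14 sums, 12436 genes tested, 7 residual degrees of freedom) or by class and phase (22 sums, 12618 genes, 11 residual degrees of freedom), for classes of at least 10 cells in each library, and the sums were tested with edgeR 4.0.16 (quasi-likelihood, TMM, filterByExpr), with Benjamini-Hochberg adjustment over all genes and a threshold of 0.05. The fits were also run on simulated counts, whose outcome is not reported here. These were drawn separately for each sum, so they do not bear on the pairing described next. The library pairs the sums, since classes of a library share its cells' source: deviations of its sums correlated with a median r of 0.122 in the class fit and 0.0994 in the phase fit. The block was an alternative, beside DESeq2 1.42.0 and other filters, resolutions and scalings. All members are named whatever their result. Of the related lists, up to 2 called genes per direction and comparison qualified for naming by fold size, and of these the report gives a selection. The 3 genes most like each member are named by r. Members and lists were chosen with earlier results of these data known. The limit given for a count of 0 covers counting error only, whereas the standard errors come from the edgeR fit.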

Additional observations from a re-analysis of the deposited data

Results flagged for a closer look

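Mbd3 was counted in barcodes outside the comparisons. In 123 barcodes that were left out for holding under 1000 genes and in which hemoglobin genes made up over 50% of UMIs, 8 Mbd3 UMIs were found, 4 in each library, above the 3 that a count of 0 allows. Their level was 13.2 and 6.25 CPM, against 160.1 and 178 in RGC-like cells. In the same barcodes Dnmt1 had 1 and 2 UMIs, Mbd2 0 and 1, and the other members 0.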

How the results depend on the processing

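Of 1264 log2 fold changes recomputed with a test, 1170 kept their direction and side of the threshold, 30 lost and 28 gained a call, and 36 turned their direction, none of which was called either way. The 2 libraries limit each test, and classes and phases were called from the same cells as the levels. The cause of the changes below was not tested.

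With only the compared sums in the fit, genes called came to 6980 (IPC-like against excitatory neuron-like, 5 members), 819 and 789 (S-like against G2/M-like in RGC-like and IPC-like cells), 6229 (excitatory neuron-like against G1-like IPC-like, 4 members) and 43 (interaction). The other counts as reported were 4476, 404, 1204, 3900 and 27. With barcodes of at least 500 genes, 1 member each was called between IPC-like and excitatory neuron-like cells, between S-like RGC-like and IPC-like cells, and between excitatory neuron-like and G1-like IPC-like cells, with 4189, 1324 and 3475 genes called. Tet1 turned to -0.034, 0.36 and 0.36 (IPC-like against excitatory neuron-like, S-like against G1-like IPC-like, excitatory neuron-like against G1-like IPC-like) and Uhrf1 to -0.25 (MGE interneuron-like against excitatory neuron-like). Without the IPC-like cluster with most neuronal markers (IPC-like clusters with over 5 of 10 were left out), an alternative added after the data had been seen, 6 members and 5116 of 12429 genes were called between IPC-like and excitatory neuron-like cells, and 1130 genes between S-like and G1-like IPC-like cells (2099 as reported), and 41 in the interaction. In the same comparisons Tet1 turned to -0.14, 0.44 and 0.59, Dnmt3a to -0.26 and Mbd2 to 0.26 (both S-like against G1-like). At resolution 0.5 these were -0.037, 0.41 and 0.52 for Tet1, -0.18 for Dnmt3a and 0.21 for Mbd2, with 1237 and 42 genes called. At resolution 2 the interaction called 11 genes and that of Tet2 turned to -0.035.

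With doublets kept, Uhrf1 turned to -0.17 (MGE interneuron-like against excitatory neuron-like) and 0.43 (excitatory neuron-like against G1-like IPC-like). At a limit of 5% mitochondrial UMIs, Tet1 turned to -0.039 and 0.15 in the same comparisons, Dnmt3b to 0.020 (S-like against G1-like IPC-like) and -0.096 (S-like RGC-like against S-like IPC-like), and the interaction called 53 genes. Genes scaled within each library gave -0.10 for Tet1 (MGE interneuron-like) and 0.049 for Mbd2 (S-like against G2/M-like RGC-like). With all genes of at least 1 count, Tet1 stood at -0.0055 (MGE interneuron-like), and 761 genes (S-like against G2/M-like RGC-like) and 454 (interaction) were called. After thinning to 5000 UMIs, S-like against G2/M-like RGC-like cells gave -0.013 for Dnmt3a and 0.013 for Tet1, and the interaction of Uhrf1 was 0.26. Counting clusters with all RGC markers as RGC-like, also added after the data had been seen, gave 0.026 for Tet1 in the former comparison and -0.0095 for Dnmt3b between S-like RGC-like and IPC-like cells, where Dnmt3b was -0.056 without cells near the phase cut, -0.0042 with DESeq2 size factors and -0.0037 in DESeq2's Wald test. The interaction called 7 genes without cells near the cut and 198 in DESeq2.

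With classes and phases taken from a random part of the UMIs and the test made on the rest, 2 members (and 816 genes) were called between S-like and G2/M-like IPC-like cells, 1 (and 1071 genes) between S-like RGC-like and IPC-like cells, 1311 genes between S-like and G1-like IPC-like cells and 17 in the interaction, and Mbd3 turned to 0.048 (S-like RGC-like against S-like IPC-like) and Uhrf1 to 0.055 (excitatory neuron-like against G1-like IPC-like). Without the cell with 76 Dnmt3a UMIs, Dnmt3a turned to 0.84 (S-like against G2/M-like IPC-like) and -0.70 (interaction), and 1 member and 3891 genes were called between excitatory neuron-like and G1-like IPC-like cells. The fit with the library as a replicate block called 62 genes in the interaction, and among the members it changed only the call of Dnmt1 between excitatory neuron-like and G1-like IPC-like cells. Of the genes called between S-like and G1-like IPC-like cells, 52.6% were higher in S-like cells with TMM and 63.1% with DESeq2 size factors (66.6% in DESeq2's Wald test), with a median over all genes of -0.13 and -0.034. Folds from a single library kept the sign for each member called.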

Other observations

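Classes too small for the fits are given as values. In endothelial cell-like cells (9 and 18 cells) Dnmt3b stood at 40.9 and 15.4 CPM, above each of the 7 classes tested, but a single cell held 10 of the 12 UMIs of replicate 2 and another 3 of the 6 of replicate 4. Striatal projection neuron-like cells (1 and 64 cells) held Dnmt3a at 104 and Tet1 at 78.2 CPM in replicate 4, and 17 of their 76 Tet1 UMIs came from a single cell. Hem or choroid plexus-like cells (18 and 9 cells) had Dnmt3a at 154 and 111 CPM and Tet2 at 21.0 and 21.3 CPM, below each of the 7 classes tested. CGE interneuron-like cells (5 and 27 cells), from the caudal ganglionic eminence, had Tet2 at 199.9 and 150.6 CPM. Mural cell-like cells (3 and 9 cells) held Mbd2 at 72.5 and 109.7 CPM.

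Clusters without a name held 168 and 205 cells. A cluster of 140 cells led by Rspo2 and Ttr, which raised 10 of 10 RGC markers, had Dnmt3a at 136 and 129 CPM and Tet2 at 59.2 and 51.2 CPM, and a cluster of 107 cells led by macrophage genes such as Lyz2 and Pf4, which also raised 10 of 10 RGC markers, had Dnmt3a at 137.5 and 139 CPM.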
